A study of Mus musculus with 2 samples.

Results

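The genes followed here encode a set of inhibitory and activating receptors of T and NK cells together with their ligands. The 10 members were the receptors Lag3, Havcr2, Tigit, Cd96, Cd226, Cd160 and Cd244a and the ligands Lgals9, Pvr and Nectin2. They were chosen as listed symbols, and all 10 were among the 32285 genes of the deposited matrices. Cells came from MC38 tumours (a colon carcinoma line of the mouse) carried by female C57BL/6 mice. The animals received LC427, for which the labels give a code name and no structure, or vehicle. Tumours of both groups were taken on day 14, dead cells were removed, and cells carrying the leucocyte protein CD45 were held on magnetic beads before 10x 5′ single-cell capture. The labels give no other treatment or allele for either group, and neither how many mice went into each library nor dose and schedule are given in the sources used here. Per the series title, the study targets LRBA, a protein that keeps CTLA4 from lysosomal breakdown, and the question put to the data here is how receptor and ligand RNA differed between treated and untreated tumours.

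LAG3 binds MHC class II and other ligands and lowers T cell activation. TIM-3, the product of Havcr2, binds galectin-9 (Lgals9) among other ligands and is carried by exhausted T cells and also by myeloid and dendritic cells. TIGIT and CD96 compete with the activating receptor CD226 for the poliovirus receptor (Pvr), and TIGIT and CD226 also bind nectin-2 (Nectin2). CD160 and 2B4 (Cd244a) are receptors of the immunoglobulin family on NK cells and CD8 T cells.

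Each group had 1 library, so no test between groups was possible and no difference has a replicate check. The LC427 library held 28732435 UMIs (unique molecular identifiers, each standing for 1 captured RNA molecule) and the Vehicle library 33711726. After filtering, 6008 LC427 cells with a median of 2353 UMIs and 5025 Vehicle cells with a median of 3494 UMIs remained. The libraries shared 50 barcodes of at least 1000 UMIs, of 6356 in LC427 and 5470 in Vehicle. Levels are CPM, the UMIs of a gene scaled to the summed UMIs of its cell class, and all intervals are at 95% and reflect counting error alone. UMIs of 1 cell are not independent, so these intervals are too narrow. A member was called higher or lower only at a ratio (LC427 over Vehicle) of at least 1.5-fold in a class with at least 20 of its UMIs over both libraries. Shares of cells with a UMI were taken after each cell was thinned to 1000 UMIs.

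Classes were named from marker genes. CD8-like cells numbered 435 in LC427 and 373 in Vehicle, CD4/Treg-like cells, led by Foxp3, 81 in LC427 and 47 in Vehicle, and NK-like cells 141 in LC427 and 347 in Vehicle. The largest class, monocyte/macrophage-like cells, held 4057 in LC427 and 3453 in Vehicle. Conventional dendritic cell (DC)-like cells numbered 252 in LC427 and 117 in Vehicle, and mature regulatory DC-like cells 156 in LC427 and 128 in Vehicle. A further cluster of 369 LC427 and 182 Vehicle cells was to stand for tumour-like cells. Its markers went partly against that label. Tm4sf1 was found in 91.7% and Sox9 in 82.0% of its cells, and Ptprc, the gene of CD45, in 6.17%. Krt18, Krt19 and Cldn7 were in 0% of them, and the fibroblast genes Col3a1 and Col1a2 were in 87.8% and 79.3%. It is called the Tm4sf1 Sox9 cluster here. Barcodes with T and myeloid markers together, 354 in LC427 and 116 in Vehicle, and 75 LC427 and 171 Vehicle unresolved T cells led by Nsg2, Cd7 and Trdc, were kept out of the named classes.

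Havcr2 (ENSMUSG00000020399, GRCm38 chr11:46454935-46481255, plus strand) was the member whose called difference rested on the most UMIs. In monocyte/macrophage-like cells its level was 72.9 CPM in LC427 (862 UMIs, 68.1 to 78.0) against 33.6 CPM in Vehicle (517 UMIs, 30.7 to 36.6). The ratio was 2.17 (1.95 to 2.43), and the intervals of the libraries did not overlap. A Havcr2 UMI was found in 7.59% of thinned LC427 cells (6.80 to 8.45) and in 3.42% of thinned Vehicle cells (2.84 to 4.08). Without thinning the shares were 17.6% in LC427 and 12.5% in Vehicle, at median depths of 2302 UMIs in LC427 and 3627 UMIs in Vehicle. Free RNA in empty droplets (barcodes of 10 to 100 UMIs) differed in the same direction, with 61.8 CPM in LC427 and 35.5 CPM in Vehicle, and its part in the difference was not tested. In the Tm4sf1 Sox9 cluster, which came from the same captures and reached median depths of 10928 UMIs in LC427 and 21176 in Vehicle, Havcr2 was at 2.41 CPM in LC427 and 3.47 CPM in Vehicle. After thinning, 0 of the 369 LC427 and 0 of the 182 Vehicle cells of that cluster held a Havcr2 UMI, which allows shares of up to 0.995% in LC427 and 2.01% in Vehicle (Clopper-Pearson). Free RNA can make up a smaller part of the UMIs of such deep cells, and thinning keeps that part. The cluster therefore does not show the part of free RNA in macrophage-like cells.

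The difference ran through the macrophage clusters. Of 10 clusters with at least 50 cells in both libraries, Havcr2 was higher in LC427 in 9 and lower in 1, with a median ratio of 1.98 and a range of 0.895 to 4.17. In cluster 10, led by Spint1, F11r and Ccr2, it had 82.4 CPM in LC427 (71.0 to 95.1) against 19.8 CPM in Vehicle (7 UMIs, 7.94 to 40.7). Cluster 9, led by Ly6i and Nos2, had 94.0 CPM in LC427 against 33.6 CPM in Vehicle. Cluster 11, led by Plac8 and Ly6c2, had 122 CPM in LC427 (95.3 to 153) against 63.6 CPM in Vehicle (41.1 to 93.8). Cluster 16, led by the osteoclast-associated genes Ctsk, Mmp9 and Acp5, was the exception and was also where Havcr2 was highest in Vehicle: it had 140 CPM in LC427 (91.4 to 205) and 156 CPM in Vehicle (101 to 231), a ratio of 0.895 (0.497 to 1.62). Cluster sizes differed between the libraries, with 899 LC427 and 126 Vehicle cells in cluster 10, and the geometric mean of the ratios over clusters, which gives each the same weight, was 2.07.

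**Figure D1:**
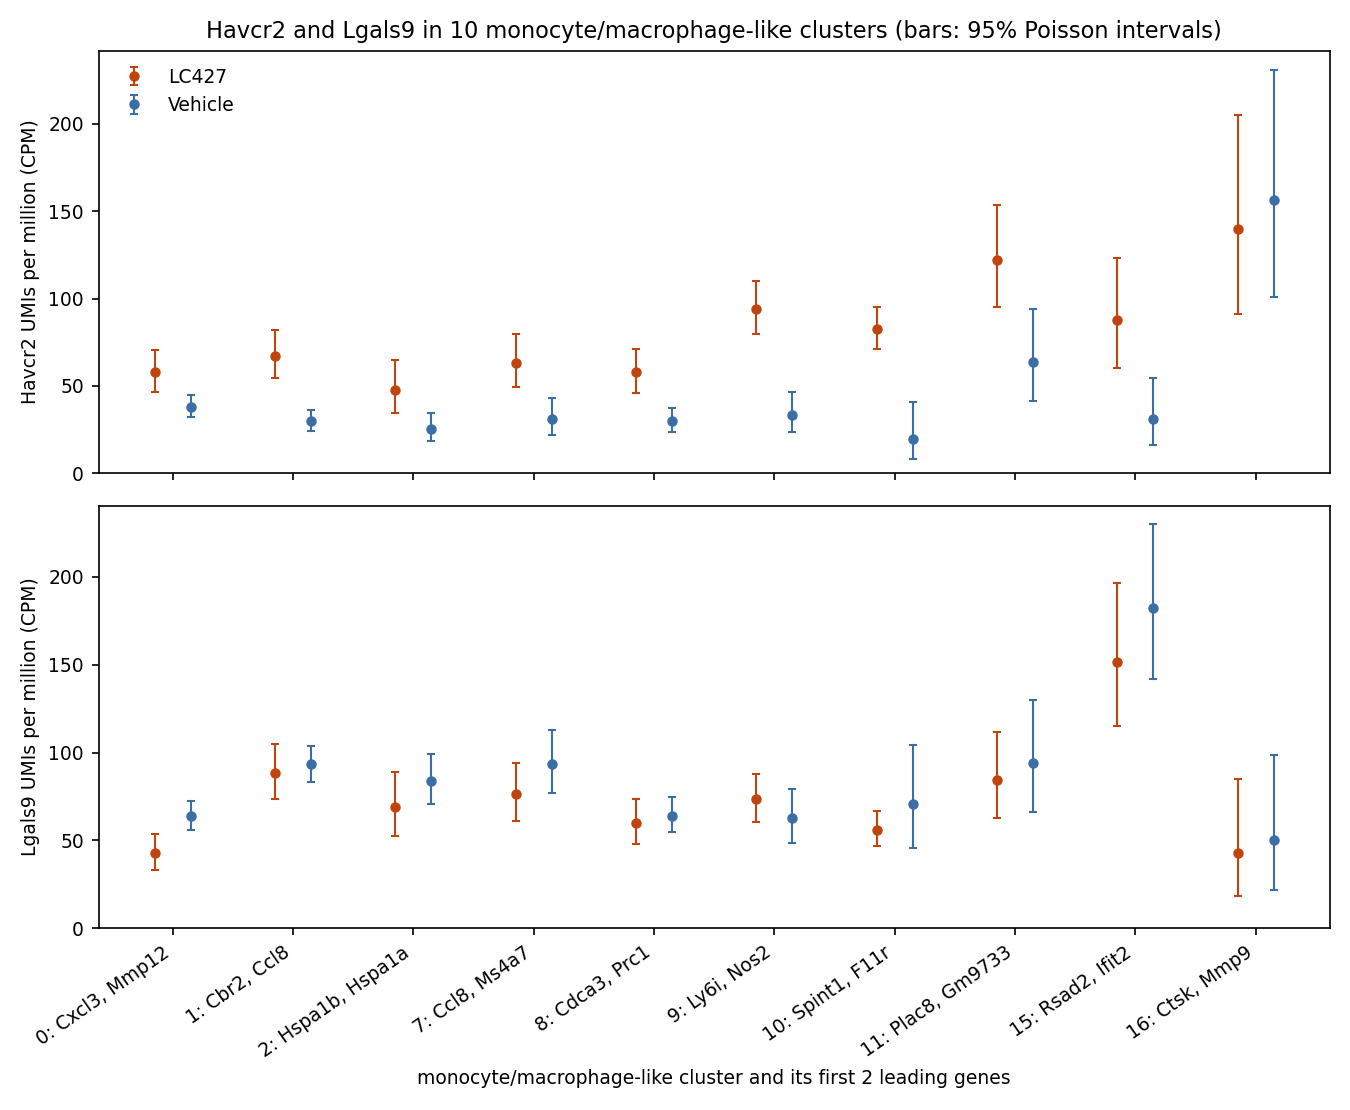
Havcr2 (top) and Lgals9 (bottom) in CPM for each of 10 monocyte/macrophage-like clusters, with LC427 in orange and Vehicle in blue and bars for 95% Poisson intervals of 1 library each. Havcr2 lies higher in LC427 in 9 clusters, and cluster 16 (140 CPM in LC427, 156 CPM in Vehicle) does not follow; Lgals9 is lower in LC427 in 9 of the 10 clusters shown.

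Among the 7 members with at least 20 UMIs in monocyte/macrophage-like cells, 3 were called higher in LC427 and 1 lower. Over all 11578 genes measured in this class, 10.8% were at least 1.5-fold higher and 6.0% at least 1.5-fold lower. The median log2 ratio of the 7 members was 0.21, beside 0.13 over all genes measured. Cd244a (ENSMUSG00000004709, chr1:171559193-171609746, plus strand) was at 14.2 CPM in LC427 and 9.35 CPM in Vehicle, with a ratio of 1.52 (1.21 to 1.91). Empty droplets held it at 12.4 CPM in LC427 and 12.2 CPM in Vehicle, so both levels lay near that of free RNA. The geometric mean over clusters was 1.13, which is under the fold required for a call. Cd226 had 38 UMIs in LC427 and 30 in Vehicle, at 3.22 CPM in LC427 and 1.95 CPM in Vehicle, both below its empty-droplet levels of 10.4 CPM in LC427 and 8.67 CPM in Vehicle. Its ratio of 1.65 (0.996 to 2.76) was 3.28 at a limit of 5% mitochondrial UMIs and 1.34 in cells gated by their own UMIs, where the call was lost; it kept the fold under 9 of 12 alternatives. The T markers were also higher in these cells in LC427 (21.7 CPM in LC427, 11.4 CPM in Vehicle), and their part was not tested. Cd226 was also among the 10 leading genes of macrophage-like cluster 14, led by Retnla, Ear2 and Lyz1. Its level thus differed between the clusters of the class, and the part of cluster 14 in the ratio was not tested. The ligand called lower was Nectin2.

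Havcr2 and Cd244a were also the only members called higher in both conventional DC-like and CD8-like cells. Conventional DC-like cells had Havcr2 at 80.2 CPM in LC427 (61.6 to 103) against 51.8 CPM in Vehicle (35.9 to 72.4), a ratio of 1.55 (1.00 to 2.42). Their Cd244a was at 47.1 CPM in LC427 (33.2 to 64.9) against 24.4 CPM in Vehicle (13.9 to 39.6), a ratio of 1.93 (1.05 to 3.72). The Poisson intervals of the libraries overlapped for both genes. With a minimum of 2000 UMIs a cell the Havcr2 ratio was 1.28 and the Cd244a ratio 1.14, both under the fold required for a call, and Havcr2 kept that fold under 3 of 10 alternatives. Of the members, 5 were measured in this class, 2 of them called higher and 1, Cd226, called lower (8.91 CPM in LC427, 19.8 CPM in Vehicle, 20 UMIs in all). Across the 6328 genes measured there, 16.9% were higher and 10.4% lower. Havcr2 and Cd244a UMIs were found together in 0 of 252 LC427 and 0 of 117 Vehicle thinned cells, which allows up to 1.45% in LC427 and 3.10% in Vehicle. Only 15 LC427 and 4 Vehicle cells held a Havcr2 UMI, and Cd244a was in 5.49% of the other LC427 and 3.54% of the other Vehicle cells. At these counts, 0 shared cells does not show that the genes lie in different cells.

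The bases before the RefSeq start of these genes are shown because Havcr2 and Cd244a were called higher in the same classes. RNA counts do not measure promoters, and the sequences are given only as context. Each is 250 bases on GRCm38.p6 from the RefSeq table, 5′ to 3′ on the plus strand, Havcr2 at chr11:46454681-46454930 and Cd244a at chr1:171558943-171559192. Capitals mark matches on either strand to TGANTCA (an AP-1 element, in 6.75% of 32841 promoter windows of this length), TGTGGT (RUNX, 14.0%), GAGGAAG (PU.1, 10.6%) and TCACAC (T-box, 12.3%); the IRF motif, in 2.98%, was searched too.
Havcr2: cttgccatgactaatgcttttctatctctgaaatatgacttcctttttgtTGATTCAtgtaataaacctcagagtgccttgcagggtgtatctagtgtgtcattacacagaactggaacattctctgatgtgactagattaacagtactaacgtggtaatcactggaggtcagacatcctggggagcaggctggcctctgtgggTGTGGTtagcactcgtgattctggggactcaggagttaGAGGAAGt
Cd244a: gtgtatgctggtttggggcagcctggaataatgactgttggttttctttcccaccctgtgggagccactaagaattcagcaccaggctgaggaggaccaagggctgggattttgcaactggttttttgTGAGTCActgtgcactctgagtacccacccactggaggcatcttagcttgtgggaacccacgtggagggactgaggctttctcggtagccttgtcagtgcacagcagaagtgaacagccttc
The Havcr2 window held the AP-1, RUNX and PU.1 letters, which do not overlap, and the Cd244a window held the AP-1 letters. A match describes letters and is not a binding site.

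In CD8-like cells Havcr2 was at 117 CPM in LC427 (111 UMIs, 96.0 to 141) against 70.7 CPM in Vehicle (110 UMIs, 58.1 to 85.2). The ratio was 1.65 (1.26 to 2.17) and the intervals of the libraries did not overlap. The share of thinned cells with a UMI was 8.74% in LC427 (6.26 to 11.8) and 5.63% in Vehicle (3.52 to 8.48), intervals that overlap, at median depths of 1741 UMIs in LC427 and 3228 UMIs in Vehicle. The ratio was above 1 under all 15 alternatives and at least 1.5 under 9 of them, and it was 1.41 without cells of fewer than 2000 UMIs. The 15 monocyte/macrophage markers summed to 474 CPM in LC427 and 676 CPM in Vehicle in these cells, with 1 of the 15 at 0 in each library. Havcr2 itself was higher in LC427 in macrophage-like cells and in empty droplets, and the part of such RNA in the CD8-like difference was not tested. Cd244a was at 51.5 CPM in LC427 (38.1 to 68.1) against 32.1 CPM in Vehicle (23.9 to 42.4), with a ratio of 1.60 (1.06 to 2.43). All 7 receptors, and 2 of the 3 ligands, had at least 20 UMIs in CD8-like cells. Of the receptors, 2 were called higher in LC427 and 0 lower, where 13.3% of the 8068 genes measured in the class were higher and 11.2% lower. Their median log2 ratio was 0.09, beside 0.06 over all genes measured.

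Lag3 (ENSMUSG00000030124, chr6:124904361-124911705, minus strand) was close between the libraries in the class as a whole. It was at 463 CPM in LC427 (440 UMIs, 420 to 508) and 449 CPM in Vehicle (699 UMIs, 417 to 484), a ratio of 1.03 (0.912 to 1.16). A UMI was present in 36.6% of thinned LC427 and 35.9% of thinned Vehicle cells. The class was made of 3 sub-clusters held in different proportions by the libraries, and Lag3 ran in opposite directions in 2 of them. Sub-cluster 5, led by Cd8b1, Cd8a and Cxcr6, held 196 LC427 and 48 Vehicle cells and had 588 CPM in LC427 against 340 CPM in Vehicle, a ratio of 1.73 (1.25 to 2.43). Sub-cluster 6, led by Ifng and Csf1 with Cd4 also among its leading genes, held 70 LC427 and 174 Vehicle cells and had 528 CPM in LC427 against 694 CPM in Vehicle, a ratio of 0.761 (0.588 to 0.974). In this sub-cluster the CD8 markers were each detected in 54.1% of cells on average, and CD4 markers were detected too. Sub-cluster 7, led by the mitosis genes Cenpf, Ube2c and Top2a, held 169 LC427 and 151 Vehicle cells and had 346 CPM in LC427 and 334 CPM in Vehicle. Lag3 stood among the leading genes of sub-cluster 5 although all members had been left out of the clustering genes. Without sub-cluster 6, where Cd4 was a leading gene, the class ratio was 1.34, and without sub-cluster 5 it was 0.849.

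Havcr2 ran in 1 direction over the same sub-clusters. Its ratio was 1.67 (0.826 to 3.74) in sub-cluster 5, 2.67 (1.58 to 4.48) in sub-cluster 6 and 1.27 (0.832 to 1.91) in sub-cluster 7. Sub-cluster 6 had 194 CPM in LC427 against 72.6 CPM in Vehicle, from 29 LC427 and 36 Vehicle UMIs.

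**Figure D2:**
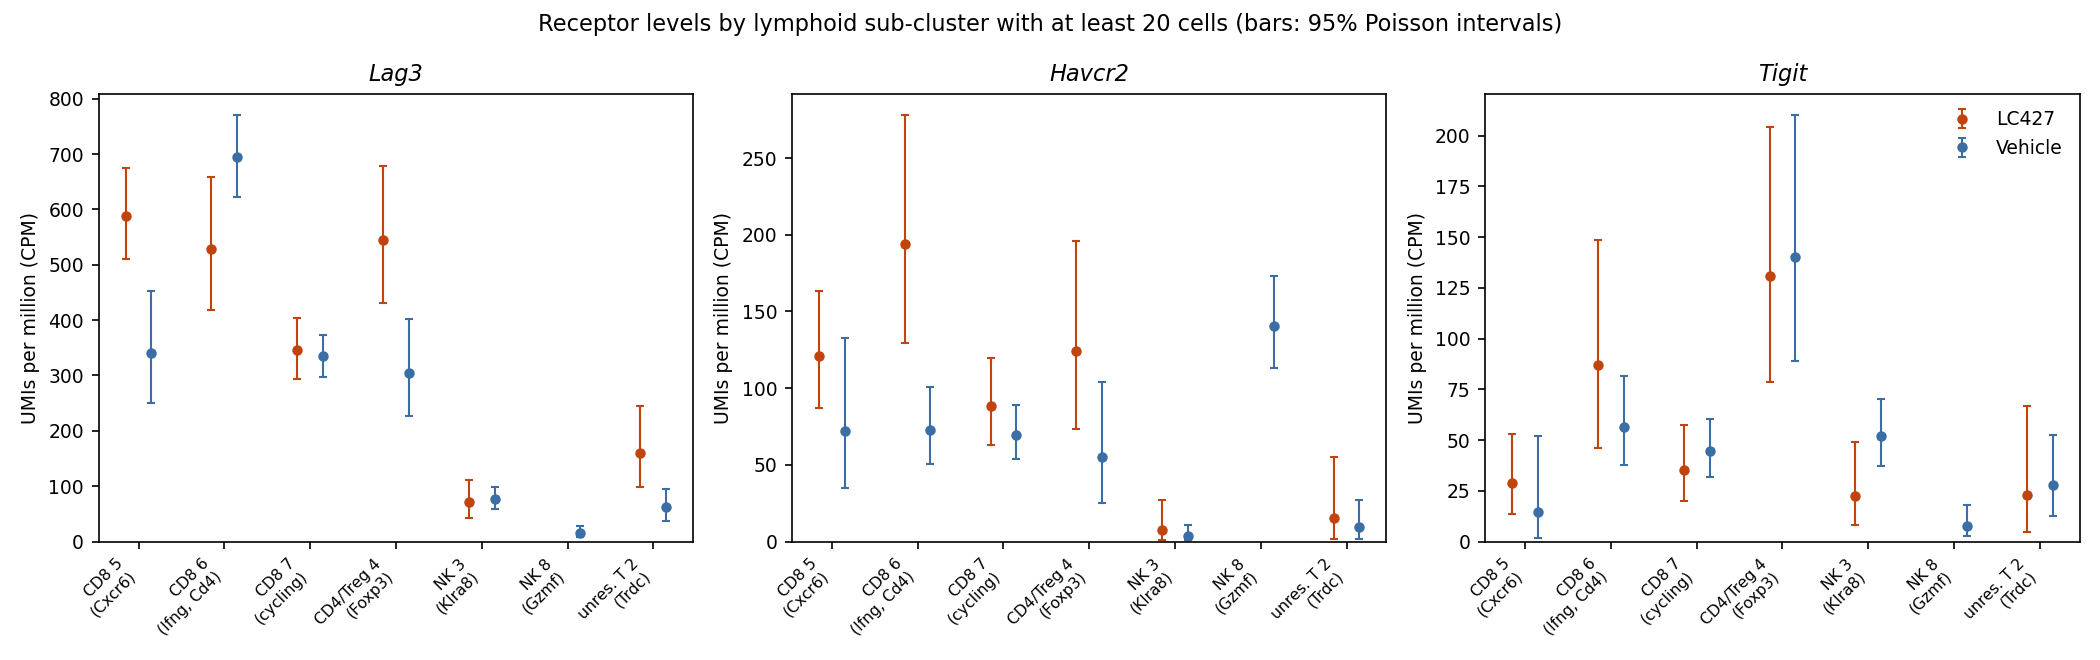
Lag3, Havcr2 and Tigit in CPM for each lymphoid sub-cluster with at least 20 cells in a library, LC427 in orange and Vehicle in blue, with 95% Poisson intervals. Lag3 is higher in LC427 in CD8 sub-cluster 5 and lower in sub-cluster 6, and among NK cells Havcr2 stands high in sub-cluster 8 of Vehicle, for which LC427 had 4 cells and no point is drawn.

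The receptors that share Pvr as a ligand differed by less than 1.5-fold between the libraries in CD8-like cells. Tigit (ENSMUSG00000071552, chr16:43648867-43664146, minus strand) was at 41.0 CPM in LC427 (29.2 to 56.0) and 45.6 CPM in Vehicle (35.6 to 57.6), a ratio of 0.898 (0.592 to 1.35). Cd96 (ENSMUSG00000022657, chr16:46035657-46120251, minus strand) was at 68.3 CPM in LC427 and 83.6 CPM in Vehicle, a ratio of 0.818 (0.597 to 1.11). Cd226 (ENSMUSG00000034028, chromosome 18), the activating receptor of the set, was at 82.0 CPM in LC427 and 77.1 CPM in Vehicle, a ratio of 1.06 (0.789 to 1.43). None of the 3 was called, and each interval includes 1. The Cd96 ratio was below 1 under all 15 alternatives and at least 1.5-fold lower under 2 of them. It was 0.607 at a minimum of 2000 UMIs. For Tigit the gate mattered: among cells with their own UMIs of a Cd3 gene and Cd8a or Cd8b1, and none of Cd4 or Foxp3, the ratio was 0.501 from 34 LC427 and 74 Vehicle UMIs. Cd160 (ENSMUSG00000038304, chr3:96798763-96829351, minus strand) was at 51.5 CPM in LC427 and 39.9 CPM in Vehicle, a ratio of 1.29 (0.870 to 1.91).

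Receptors were seldom caught together in a CD8-like cell thinned to 1000 UMIs. Of Lag3, Havcr2 and Tigit, 2 were found together in 4.83% of LC427 and 5.09% of Vehicle cells, and all 3 in 0 of 435 LC427 and 2 of 373 Vehicle cells. Lag3 and Havcr2 were found together in 3.68% of LC427 cells (2.12 to 5.90) and 2.95% of Vehicle cells (1.48 to 5.22), beside 3.19% in LC427 and 2.02% in Vehicle from the product of their single shares. Tigit was found in 3.14% of Lag3-positive and 3.62% of Lag3-negative cells in LC427, against 8.96% of Lag3-positive and 3.77% of Lag3-negative cells in Vehicle. These shares rest on 5 LC427 and 12 Vehicle cells with both genes.

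CD4/Treg-like cells carried the highest Tigit level of any class, 131 CPM in LC427 (19 UMIs, 78.7 to 204) and 140 CPM in Vehicle (23 UMIs, 88.9 to 210), with a ratio of 0.933 (0.481 to 1.79). Thinning turned this ratio to 1.93 on 10 LC427 and 3 Vehicle UMIs, and it was 0.505 when mixed barcodes were assigned by sub-cluster and T sub-clusters with NK receptor genes were named NK-like. In both libraries the next class had an interval that did not reach it. Lag3 in these cells was at 544 CPM in LC427 (79 UMIs, 431 to 678) against 305 CPM in Vehicle (50 UMIs, 226 to 402), 1.78-fold (1.24 to 2.60). That ratio turned to 0.846 in cells gated by their own UMIs of a Cd3 gene and Cd4 or Foxp3, with none of Cd8a or Cd8b1, and to 0.684 at a minimum of 2000 UMIs, where 6 LC427 UMIs were left. Havcr2 was at 124 CPM in LC427 and 54.8 CPM in Vehicle from 18 LC427 and 9 Vehicle UMIs, a ratio of 2.26 (0.964 to 5.71), and thinning took it to 0.928. Only 3 members had 20 UMIs there, 2 called higher and 0 lower, where 15.6% of 2516 genes measured were higher and 15.0% lower.

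NK-like cells differed in Havcr2 in the other direction. Havcr2 was at 7.19 CPM in LC427 (2 UMIs, 0.871 to 26.0) against 65.4 CPM in Vehicle (94 UMIs, 52.9 to 80.1), a ratio of 0.110 (0.0131 to 0.408). Of the 94 Vehicle UMIs, 91 came from sub-cluster 8, led by the granzyme genes Gzmg, Gzmd, Gzme and Gzmf, which held 42 Vehicle and 4 LC427 cells. There 23 of the 42 Vehicle cells had a Havcr2 UMI, the highest cell had 12, and the level was 141 CPM (113 to 173). The other NK sub-cluster, led by Klra8, Klrb1c and Ncr1, had 2 UMIs in 137 LC427 cells and 3 UMIs in 305 Vehicle cells. The difference in the class thus lay with cells that were almost all from Vehicle. Whether Havcr2 differs between treatments within such cells cannot be read from 4 cells. In Vehicle, sub-cluster 8 held a larger part of the summed UMIs of the class than its 42 of 347 cells. All Vehicle levels and ratios of NK-like cells carry this weight. NK markers were each detected in 38.0% of the cells of sub-cluster 8 on average and Treg markers in 31.3%. No NK marker was among its leading genes.

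Other receptors of NK-like cells were closer. Cd244a had its highest level here, at 119 CPM in LC427 (81.7 to 167) and 129 CPM in Vehicle (112 to 149), a ratio of 0.916 (0.613 to 1.33). The next class, unresolved T cells, overlapped it in LC427 (60.9 CPM, 26.3 to 120) and not in Vehicle (49.3 CPM, 28.2 to 80.1). Tigit was at 25.2 CPM in LC427 (7 UMIs) and 32.0 CPM in Vehicle (46 UMIs), a ratio of 0.786 (0.299 to 1.75), which was 0.434 without sub-cluster 8. Lag3 was at 75.5 CPM in LC427 and 49.4 CPM in Vehicle, a ratio of 1.53 (0.891 to 2.52), and at 0.923 without sub-cluster 8. The CD8 markers summed to 28.8 CPM in LC427 and 11.1 CPM in Vehicle in NK-like cells and the T markers to 288 CPM in LC427 and 401 CPM in Vehicle, and their part in the Lag3 difference was not tested. Cd96, at 64.7 CPM in LC427 and 82.8 CPM in Vehicle, had a ratio of 0.781 (0.448 to 1.29). Of 8 members measured, 1 was called higher and 1 lower, where 23.6% of the 6462 genes measured in NK-like cells were higher and 17.2% lower.

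**Figure D3:**
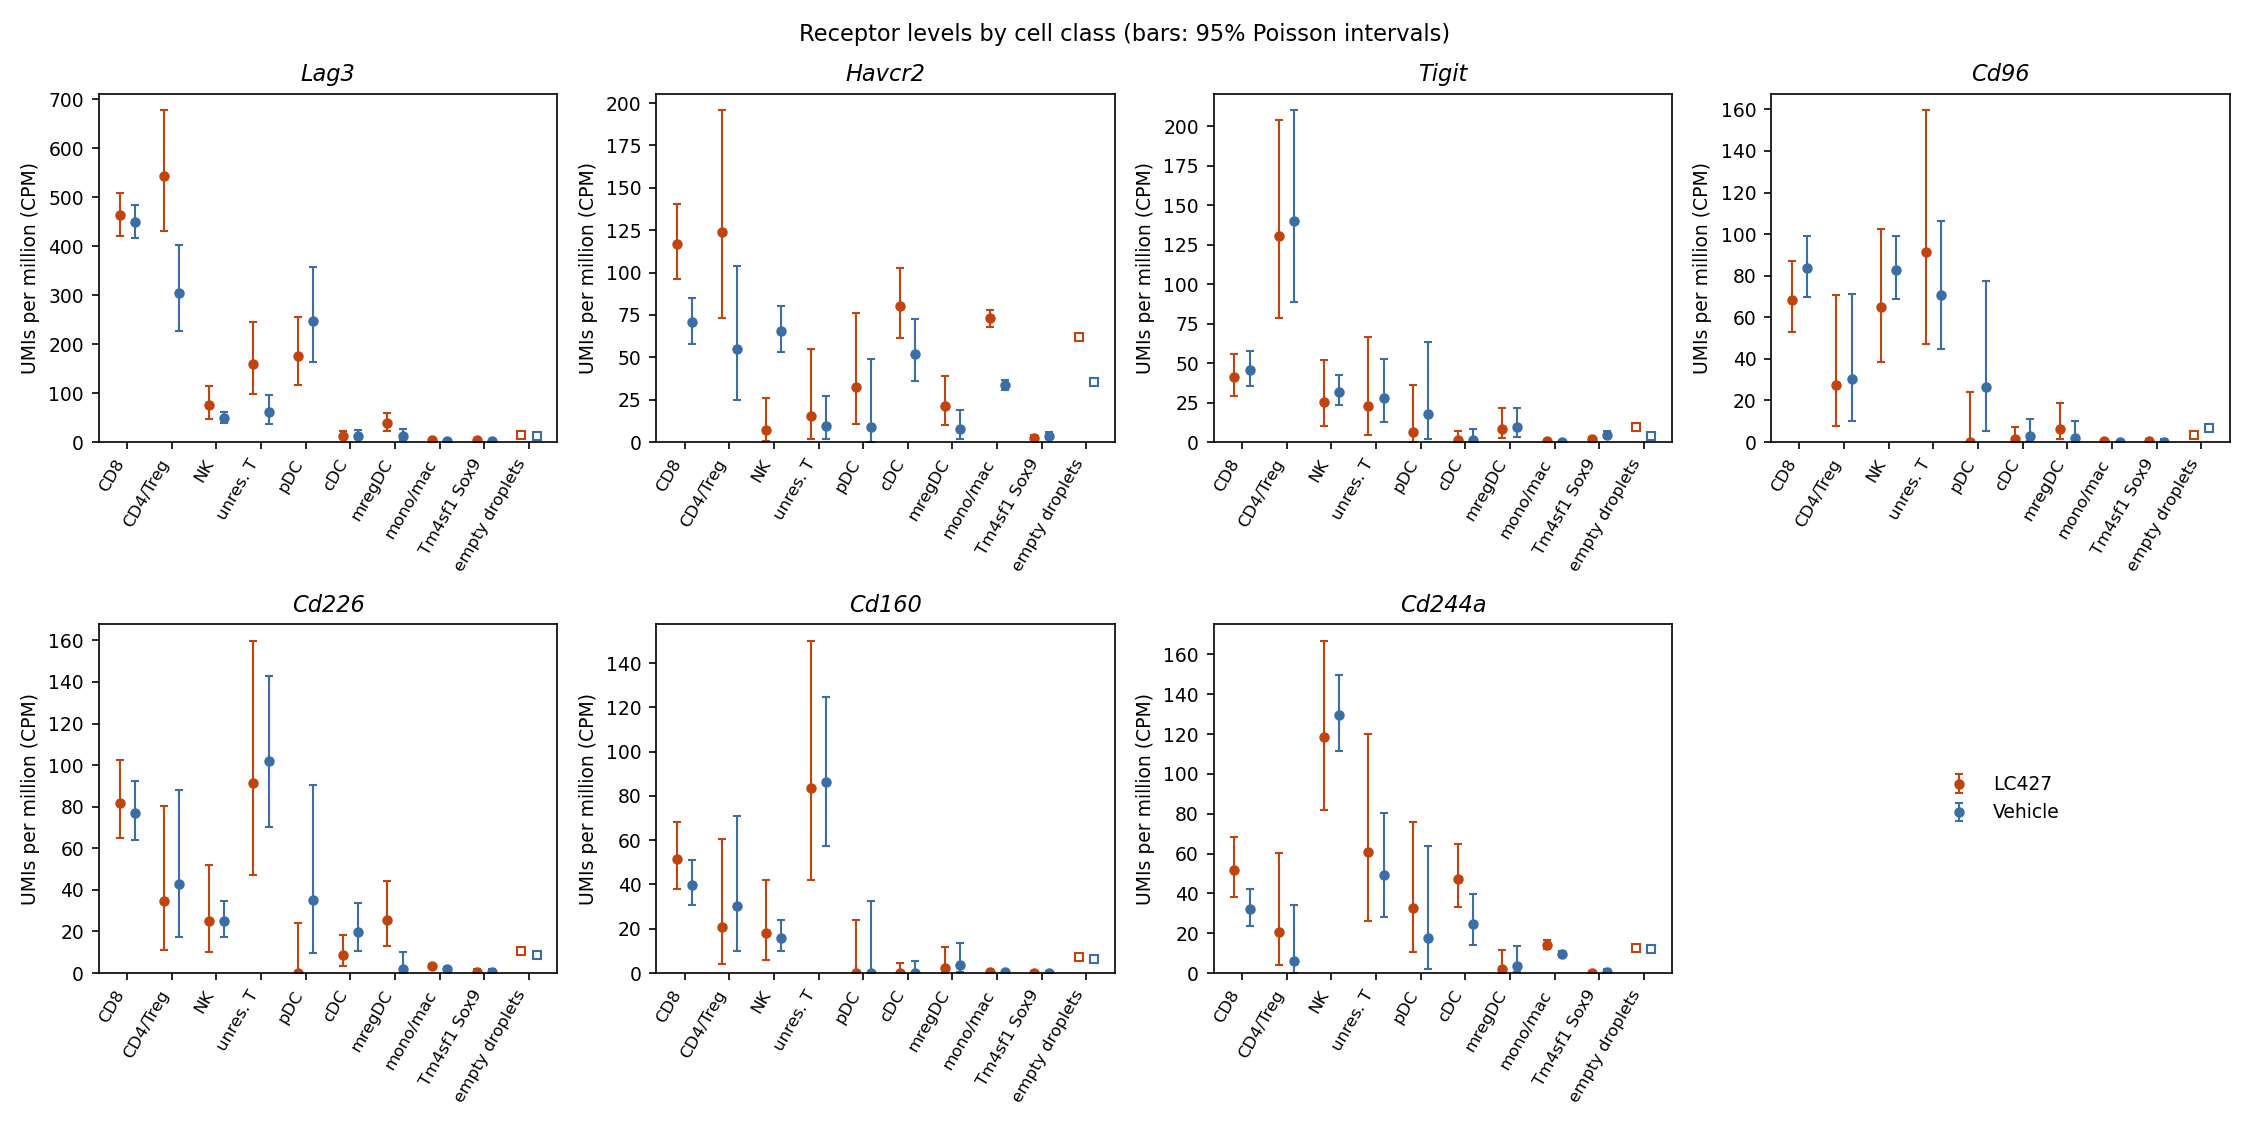
Levels of the 7 receptors in CPM by class, LC427 in orange and Vehicle in blue, with 95% Poisson intervals; open squares give the level in empty droplets. Short names on the axis are pDC for plasmacytoid, cDC for conventional and mregDC for mature regulatory DC-like cells, mono/mac for monocyte/macrophage-like cells and unres. T for unresolved T cells. Lag3, Tigit, Cd96, Cd226 and Cd160 are at or under their empty-droplet level in monocyte/macrophage-like cells, and so is Havcr2 in Vehicle (33.6 CPM, empty droplets 35.5 CPM), while in LC427 Havcr2 lies above it (72.9 CPM, empty droplets 61.8 CPM).

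Across classes the receptors fell into different orders. For Lag3 in LC427 the highest levels were those of CD4/Treg-like (544 CPM) and CD8-like cells (463 CPM), whose intervals overlap. Neutrophil-like cells followed with 311 CPM, which came from 15 UMIs in 3 of 22 cells. Their cluster was led by Hdc, S100a9 and S100a8. Gata2, listed here as a mast cell and basophil marker, was also among its leading genes, so the name is uncertain. In Vehicle CD8-like cells (449 CPM) lay above CD4/Treg-like cells (305 CPM) and plasmacytoid DC-like cells (247 CPM), and the last 2 overlap. Plasmacytoid DC-like cells, 54 in LC427 and 29 in Vehicle, had Lag3 at 176 CPM in LC427 (116 to 256) and 247 CPM in Vehicle (164 to 357), a ratio of 0.713 (0.404 to 1.26). Cd226 had its highest level in unresolved T cells, 91.4 CPM in LC427 and 102 CPM in Vehicle, where it overlapped the CD8-like interval in both libraries. Cd160 was also highest there, at 83.8 CPM in LC427 (41.8 to 150) and 86.4 CPM in Vehicle (57.4 to 125), and overlapped CD8-like cells in LC427 only. Cd96 in CD8-like, NK-like and unresolved T cells could not be ordered, since their intervals overlap in both libraries.

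Ligands lay mainly in myeloid cells and the Tm4sf1 Sox9 cluster. Lgals9 (ENSMUSG00000001123, chr11:78962974-78984946, minus strand) had 71.0% of its LC427 and 73.6% of its Vehicle UMIs in monocyte/macrophage-like cells. Its level there was 68.0 CPM in LC427 (63.4 to 72.9) against 78.9 CPM in Vehicle (74.5 to 83.5). The ratio of 0.862 (0.787 to 0.943) is below 1 beyond counting error and under the fold required for a call. In empty droplets Lgals9 was at 50.4 CPM in LC427 and 60.2 CPM in Vehicle, which differ in the same direction. Of 9 clusters with at least 20 Lgals9 UMIs it was lower in LC427 in 8. Cluster 15, led by the interferon-response genes Rsad2 and Ifit2, had the highest level, with 152 CPM in LC427 and 182 CPM in Vehicle. Havcr2 and Lgals9 UMIs fell in the same thinned macrophage-like cell in 0.592% of LC427 cells (24 cells) and 0.232% of Vehicle cells (8 cells). In LC427 Lgals9 was found in 7.79% of the 308 Havcr2-positive and 6.43% of the Havcr2-negative cells. In Vehicle it was found in 6.78% of the 118 Havcr2-positive and 7.68% of the Havcr2-negative cells.

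In the Tm4sf1 Sox9 cluster Lgals9 was at 27.6 CPM in LC427 (23.0 to 32.8) against 43.6 CPM in Vehicle (37.4 to 50.6), a ratio of 0.632 (0.499 to 0.799), and the intervals did not overlap. Pvr (ENSMUSG00000040511, chr7:19903578-19921160, minus strand), the ligand of Tigit, Cd96 and Cd226, was at 29.8 CPM in LC427 (25.0 to 35.2) against 41.4 CPM in Vehicle (35.4 to 48.2) in these cells, a ratio of 0.719 (0.569 to 0.907). Nectin2 (ENSMUSG00000062300, chr7:19716644-19750483, minus strand) was at 10.3 CPM in LC427 and 8.68 CPM in Vehicle, a ratio of 1.19 (0.749 to 1.89). Median depth in this cluster was 10928 UMIs in LC427 and 21176 in Vehicle, and the part of depth in these ratios was not tested; after thinning the Pvr ratio was 0.712 and that of Lgals9 0.452, the last from 11 LC427 and 12 Vehicle UMIs. Of 6 members measured in the cluster, 1 (Lag3, at 4.59 CPM in LC427 and 2.23 CPM in Vehicle, under its empty-droplet levels of 14.8 CPM in LC427 and 11.9 CPM in Vehicle) was called higher and 2 (Lgals9 and Tigit) lower. Over the 10957 genes measured there, 8.67% were higher and 10.4% lower.

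Pvr in monocyte/macrophage-like cells was at 15.6 CPM in LC427 and 17.8 CPM in Vehicle, a ratio of 0.875 (0.722 to 1.06). Nectin2 was at 2.71 CPM in LC427 (32 UMIs) against 4.41 CPM in Vehicle (68 UMIs), a ratio of 0.613 (0.390 to 0.947), with empty droplets at 2.35 CPM in LC427 and 2.44 CPM in Vehicle. Of the 10 macrophage clusters, 1 had at least 20 Nectin2 UMIs, at a ratio of 0.252. Whether the other clusters differ in the same direction cannot be read from so few UMIs. Leaving aside classes of under 50 cells in a library, both ligands had their highest level in mature regulatory DC-like cells. Pvr was at 40.3 CPM in LC427 (24.2 to 62.9) and 63.1 CPM in Vehicle (43.7 to 88.2) there, a ratio of 0.638 (0.344 to 1.15), which thinning turned to 1.85 on 9 LC427 and 4 Vehicle UMIs. Nectin2 was at 19.1 CPM in LC427 and 26.0 CPM in Vehicle, a ratio of 0.734 (0.280 to 1.82). These intervals overlapped those of the Tm4sf1 Sox9 cluster for Pvr in both libraries and for Nectin2 in LC427, but not for Nectin2 in Vehicle. Of the members, 3 were measured in mature regulatory DC-like cells, 1 called higher (Lag3, 18 LC427 and 7 Vehicle UMIs) and 1 lower (Pvr). Over the 4875 genes measured there, 19.8% were higher and 9.72% lower. T cell markers were higher in LC427 in this class as well: the 6 T markers, none of them at 0, summed to 511 CPM in LC427 and 134 CPM in Vehicle, and the 2 CD8 markers to 53.0 CPM in LC427 and 0 CPM in Vehicle, where both were at 0. Their part in the Lag3 difference was not tested.

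**Figure D4:**
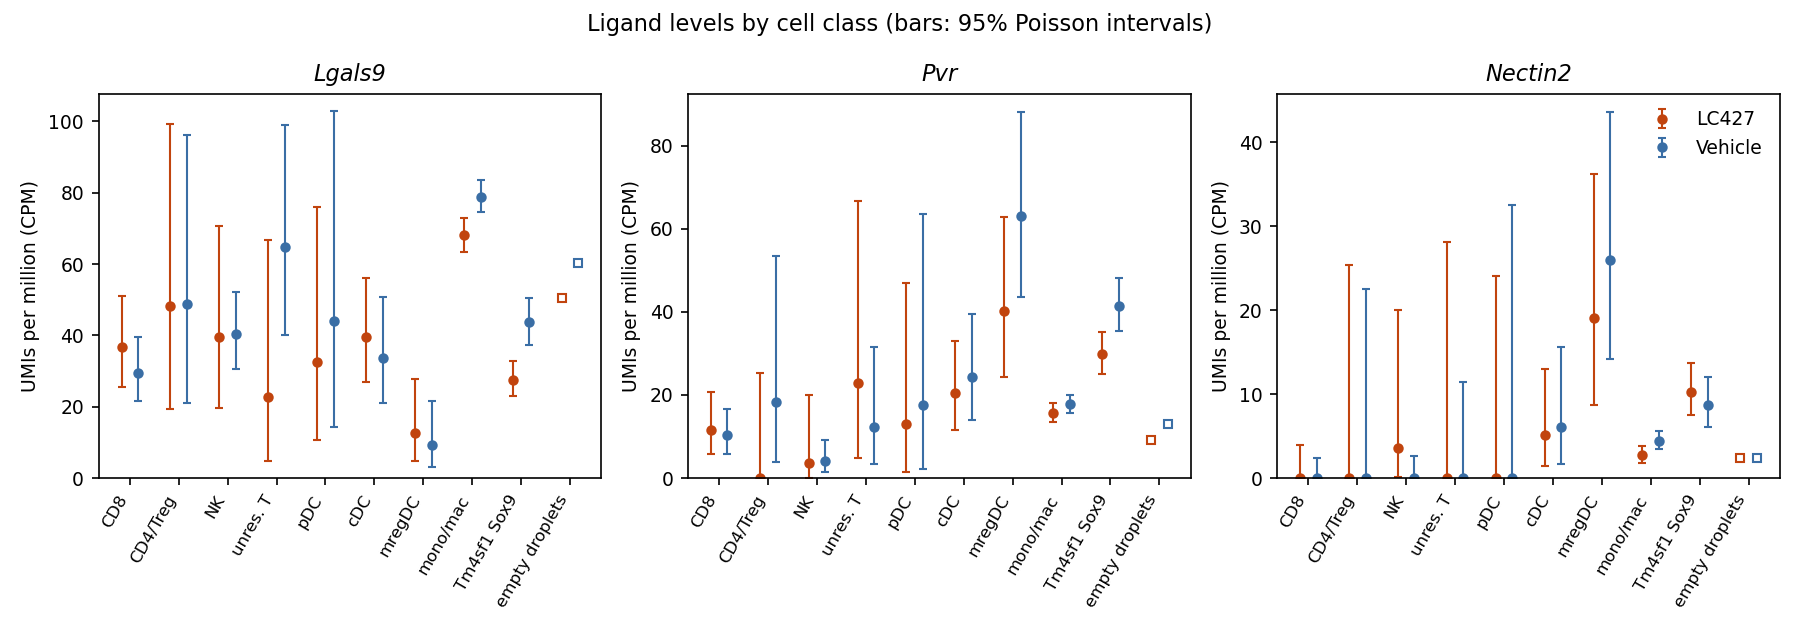
Levels of the ligands Lgals9, Pvr and Nectin2 in CPM by class, LC427 in orange and Vehicle in blue, with 95% Poisson intervals and open squares for empty droplets; short names are as in the plot of the receptors. Lgals9 is lower in LC427 in monocyte/macrophage-like cells (68.0 CPM in LC427, 78.9 CPM in Vehicle) and in the Tm4sf1 Sox9 cluster, and of the 9 classes drawn, Pvr and Nectin2 have their highest points in mature regulatory DC-like cells; neutrophil-like and fibroblast-like cells are not drawn, and reached 41.4 CPM of Pvr (neutrophil-like, LC427) and 42.8 CPM of Nectin2 (fibroblast-like, Vehicle).

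**Figure D5:**
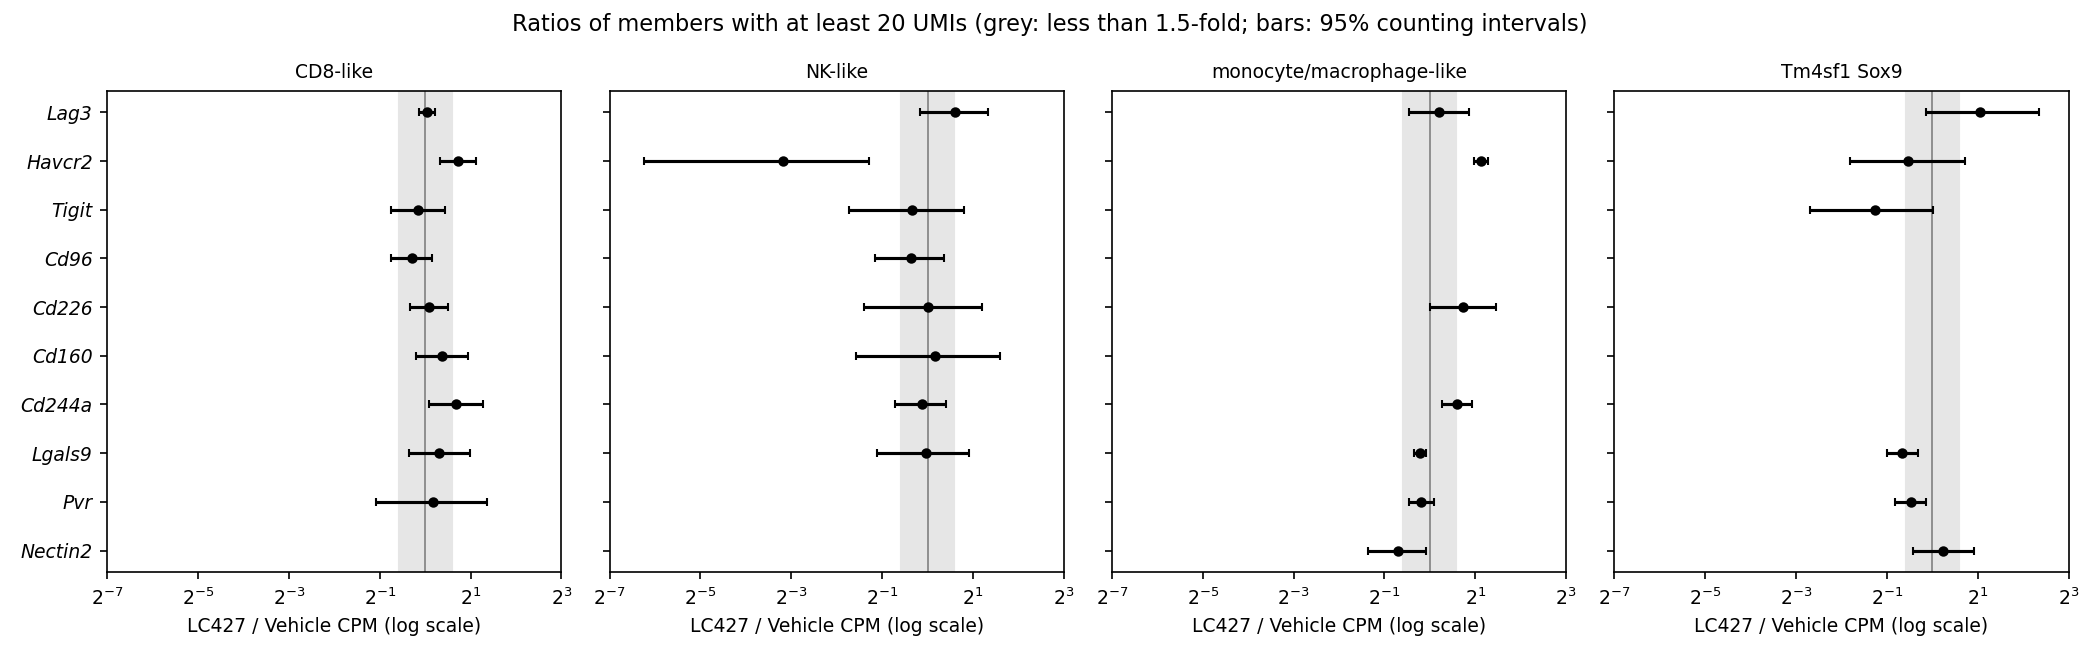
Ratios of CPM, LC427 over Vehicle, on a log scale for each member with at least 20 UMIs in 4 classes, with 95% counting intervals; the grey band marks less than 1.5-fold. Havcr2 lies right of the band in CD8-like (1.65) and monocyte/macrophage-like cells (2.17) and left of it in NK-like cells (0.110).

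Other genes of the same pathways were followed in 4 lists, of which the genes with most UMIs are named. Of 11 other checkpoint and exhaustion genes, 9 were measured in CD8-like cells, 1 called higher in LC427 and 3 lower, beside 13.3% higher and 11.2% lower over all genes measured in the class. Cx3cr1, a chemokine receptor of effector cells and macrophages, was at 110 CPM in LC427 against 59.8 CPM in Vehicle, a ratio of 1.85 (1.38 to 2.47). Tbx21, the gene of the transcription factor T-bet, was at 37.8 CPM in LC427 against 81.6 CPM in Vehicle, a ratio of 0.464 (0.311 to 0.676). Pdcd1, the gene of PD-1, was at 146 CPM in LC427 and 160 CPM in Vehicle, a ratio of 0.913 (0.736 to 1.13), and Ctla4 at 198 CPM in LC427 and 280 CPM in Vehicle, a ratio of 0.707 (0.592 to 0.841). Of 11 adaptors and signalling genes, 10 were measured there, 0 called higher and 2 lower against the same shares, among them Tyrobp, the gene of the adaptor DAP12, at 111 CPM in LC427 and 253 CPM in Vehicle. Of the 10 other ligands, Lgals3, a galectin that binds LAG3, was lower in LC427 in CD8-like cells (123 CPM in LC427, 203 CPM in Vehicle) and in NK-like cells (104 CPM in LC427, 654 CPM in Vehicle). Tyrobp and Lgals3 are also myeloid genes. The monocyte/macrophage markers were lower in LC427 in the CD8-like cells as given above. In NK-like cells they summed to 892 CPM in LC427 and 878 CPM in Vehicle. The granzyme-led NK sub-cluster came almost all from Vehicle. The part of myeloid RNA and of that sub-cluster in these differences was not tested.

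In monocyte/macrophage-like cells 28 of the 43 listed genes were measured, 3 called higher and 0 lower, beside 10.8% higher and 6.0% lower over all genes there, so the count of higher genes is near the background. Nectin1, a further nectin, was the called gene among those with most UMIs, at 16.8 CPM in LC427 and 10.1 CPM in Vehicle, a ratio of 1.66 (1.34 to 2.06). Sh2d1b1, the gene of the 2B4 adaptor EAT-2, which the naming rule leaves out, was at 13.9 CPM in LC427 and 6.56 CPM in Vehicle, a ratio of 2.12 (1.64 to 2.74). Ctla4, likewise outside that rule, was at 3.55 CPM in LC427 and 1.56 CPM in Vehicle from 42 LC427 and 24 Vehicle UMIs. The T markers differed in the same direction in these cells, summing to 21.7 CPM in LC427 and 11.4 CPM in Vehicle, far under their sums in empty droplets (257 CPM in LC427, 233 CPM in Vehicle), and so did the 5 Treg markers, of which Ctla4 is 1 (20.6 CPM in LC427, 9.28 CPM in Vehicle, with empty droplets at 130 CPM in LC427 and 96.2 CPM in Vehicle). Their part in the Ctla4 difference was not tested. Cd48, the ligand of 2B4, was at 77.4 CPM in LC427 and 73.7 CPM in Vehicle, a ratio of 1.05 (0.961 to 1.15). Of the listed genes 18 were measured in CD4/Treg-like cells, 3 called higher and 2 lower, near the shares over all genes there (15.6% higher, 15.0% lower), and Ctla4 was at 1267 CPM in LC427 and 1274 CPM in Vehicle. NK-like cells had 25 measured, 3 called higher and 5 lower, beside 23.6% higher and 17.2% lower over all genes there, with Ly9, a SLAM-family receptor, at 68.3 CPM in LC427 and 29.9 CPM in Vehicle.

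Over the 16 profiles of 8 classes in each library (log2 of CPM plus 10), the genes closest to each member in pattern were found by Pearson correlation among 5452 genes. The 8 classes leave out CD4/Treg-like cells, where Tigit and the LC427 level of Lag3 were highest, and include the mixed T and myeloid barcodes and the unresolved T cells; the highest Tigit profile among them, 64.9 CPM, is that of the mixed barcodes in Vehicle. Lag3 was nearest to Igflr1 (0.969), Ifng (0.958) and Camk4 (0.954), and Tigit to Cd27 (0.931), Ikzf3 (0.927) and Cd2 (0.926). Cd96 was nearest to Sytl2 (0.989) and Fasl (0.984), Cd226 to Map4k2 (0.967), Cd160 to Prkcq (0.963) and Cd244a to Itga1 (0.935). Havcr2 had looser neighbours, Cmtm7 (0.831), Tmem160 (0.822) and Entpd1 (0.812). Lgals9 was nearest to Tspan14 (0.853), Pvr to Actn1 (0.945) and Nectin2 to Ctnna1 (0.956). Profiles of a library share its depth and free RNA, and these values are a description over classes.

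In the authors' deposited table of LC427, made from a separate clustering in 11 clusters, 6 of the 7 receptors had their highest mean in the authors' cluster 3, where Foxp3 and Ncr1 were also highest. Havcr2 was the exception, with its highest mean of 0.411 counts per cell in cluster 11. The authors' deposited table of Vehicle, in 13 clusters, had Lag3 and Cd226 highest in cluster 11 with Cd8a, Tigit, Cd96 and Cd160 in cluster 5 with Ncr1, and Cd244a in cluster 7 with Gzmf. Havcr2 had its highest mean there, 0.395, in cluster 13. These means come from separate clusterings and are not compared.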

How the data were processed

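Single cells of 2 libraries, 1 LC427 and 1 Vehicle, were analysed from the deposited matrices of UMI counts, which the authors made with Cell Ranger on GRCm38 (mm10). Cell Ranger 3.0.1 and Seurat 3 are named in the submitters' processing notes, whereas the matrix headers name Cell Ranger version 4, and which was used is not settled here. For each library the authors deposited a further table of mean count (used as a signal per cluster) and log2 fold change for each of their clusters; log2 values were not used in the results.

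Kept barcodes had 1000 UMIs or more, 400 genes or more and no more than 10% mitochondrial UMIs (6328 LC427, 5245 Vehicle). The automatic doublet threshold of Scrublet called 0 cells, so the highest scores were dropped at 0.8% per 1000 cells (320 LC427, 220 Vehicle). Cells were clustered with scanpy 1.11.5 (2000 variable genes without the members, 30 principal components, 20 neighbours, Leiden resolution 1) and lymphoid cells were clustered again in the same way. Clusters were named from at least 3 detected markers. The members and gene lists were chosen with earlier results of these data known. The naming rule was revised after the cells were seen: the minimum of 3 markers and a limit on Ptprc were added, and sub-cluster resolutions of 0.8, 1.2 and 1 were tried. UMIs were summed by class and library. Levels have exact Poisson intervals, ratios exact conditional binomial intervals and shares Clopper-Pearson intervals, all at 95% and for counting error only. In a ratio, a count of 0 was set to 3 counts. With 1 library per group no test was made. The script for ratios was tested on simulated data. Genes other than members are named where they are among the 4 with most UMIs of their list, apart from those said to lie outside that rule, and the 3 genes most like a member are ranked by Pearson correlation, of which the text names 1 to 3. The promoters and ligand pairs shown were chosen after values were seen. Ratios were planned for clusters with at least 50 cells in each library. Some groups are given although they fall under that minimum. Of the lymphoid cells these are CD4/Treg-like cells (47 in Vehicle), sub-cluster 5 (48 in Vehicle) and sub-cluster 8 (4 in LC427). Mixed sub-cluster 0 (40 in Vehicle) and plasmacytoid DC-like cells (29 in Vehicle) are others. So are neutrophil-like cells (22 in LC427, 31 in Vehicle) and fibroblast-like cells (12 in LC427, 31 in Vehicle). RefSeq promoters matched 7 of 10 members. Alternatives covered cell filters, doublets, resolution, libraries clustered alone, naming, gating by a cell's own UMIs, thinning and scaling.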

Additional observations from a re-analysis of the deposited data

Results flagged for a closer look

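Havcr2 ran in opposite directions between classes. Its ratio, LC427 over Vehicle, was above 1 in monocyte/macrophage-like, CD8-like and conventional DC-like cells and below 1 in NK-like cells. The ratio in monocyte/macrophage-like cells was 19.8 times that in NK-like cells, the ratio in CD8-like cells 15.0 times and the ratio in conventional DC-like cells 14.1 times. All 3 rest on the same NK-like value, of which 91 of 94 Vehicle UMIs lie in the granzyme-led sub-cluster 8. Without that sub-cluster the NK-like ratio was 1.97, from 2 LC427 and 3 Vehicle UMIs, on the same side of 1 as the other classes. These differences between classes were not tested, since each group has 1 library.

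Lag3 ran in opposite directions in 2 CD8-like sub-clusters. The ratio in sub-cluster 5 was 2.27 times that in sub-cluster 6, and this difference was not tested either.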

How the results depend on the processing

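No paired analysis was possible because each group has 1 library. Of the ratios of the main results, 116 alternatives stayed within the counting interval and 5 moved beyond it. Havcr2 in monocyte/macrophage-like cells, treated as a main result after its value was seen, was between 1.99 and 2.26 under 13 alternatives, and in CD8-like cells between 1.41 and 1.97 under 15. Lgals9 in monocyte/macrophage-like cells was between 0.788 and 0.899, Pvr between 0.746 and 0.899 and Nectin2 between 0.548 and 0.790. Gating cells by their own UMIs gave Lag3 in CD8-like cells 0.750, Tigit in CD8-like cells 0.501 and Lag3 in CD4/Treg-like cells 0.846. Lag3 in CD8-like cells was 0.849 without sub-cluster 5 and 1.34 without sub-cluster 6, and was above 1 under 8 of 15 alternatives. A minimum of 2000 UMIs gave Lag3 in CD4/Treg-like cells 0.684. Thinning to 1000 UMIs gave 1.93 for Tigit and 0.928 for Havcr2 in CD4/Treg-like cells, 0.788 for Lag3 in NK-like cells, 1.85 for Pvr in mature regulatory DC-like cells and 0.986 for Lag3 in the Tm4sf1 Sox9 cluster. Without NK sub-cluster 8, Lag3 in NK-like cells was 0.923 and Havcr2 1.97, the last from 2 LC427 and 3 Vehicle UMIs. Naming T sub-clusters with NK receptor genes NK-like and assigning mixed barcodes by sub-cluster gave 0.505 for Tigit in CD4/Treg-like cells. The cause was not tested; thinning leaves fewer UMIs by its construction. For the other ratios, 361 alternatives stayed within the interval and 15 moved. A further 8, all for ratios called at 1.5-fold, turned to the other side of 1. Crossings of 1 by ratios that were not called are not among these 8. For example, in NK-like cells Cd160 was above 1 under 8 of 13 alternatives and Lgals9 below 1 under 7 of 13. The alternatives that leave out a sub-cluster, and the geometric mean over clusters, were chosen after seeing the data. Depth limits members with few UMIs: in NK-like and CD4/Treg-like cells of LC427, several receptors had under 10.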

Other observations

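Mixed barcodes with T and myeloid genes held 37.7% of the Tigit UMIs of LC427 and 21.3% of those of Vehicle. Of the Lag3 UMIs, CD8-like cells held 48.9% in LC427 and 68.8% in Vehicle, and mixed barcodes 23.2% in LC427 and 6.79% in Vehicle. The comparisons of CD8-like cells leave out the UMIs of mixed barcodes. Their Tigit level was 31.9 CPM in LC427 (55 UMIs) and 64.9 CPM in Vehicle (49 UMIs), a ratio of 0.492 (0.328 to 0.738), and their Havcr2 level was 71.4 CPM in LC427 and 41.1 CPM in Vehicle, a ratio of 1.74 (1.16 to 2.67). The 2 mixed sub-clusters differed in Havcr2, with a ratio of 0.919 (0.520 to 1.67) in sub-cluster 0, led by Cst3 and Ccl22, and 3.16 (1.68 to 6.56) in sub-cluster 1, led by Fn1 and Thbs1; the difference between them was not tested. Whether these barcodes are cells in contact, doublets or single cells was not tested.

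Unresolved T cells had Lag3 at 160 CPM in LC427 (21 UMIs) and 61.7 CPM in Vehicle (20 UMIs), a ratio of 2.59 (1.34 to 5.04). Neutrophil-like cells, 22 in LC427 and 31 in Vehicle, had Havcr2 at 269 CPM in LC427 (13 UMIs in 11 cells) and 26.3 CPM in Vehicle (2 UMIs in 2 cells), a ratio of 10.2 (2.32 to 93.4). The name of this cluster is uncertain, since the mast cell and basophil marker Gata2 was among its leading genes. In mature regulatory DC-like cells the activating receptor Cd226 had 12 UMIs in LC427 and 1 UMI in Vehicle, at 25.4 CPM in LC427 and 1.86 CPM in Vehicle. The T markers of that class summed to 511 CPM in LC427 and 134 CPM in Vehicle, and their part in the Cd226 difference was not tested. Fibroblast-like cells, 12 in LC427 and 31 in Vehicle, had Nectin2 at 26.5 CPM in LC427 (2 UMIs) and 42.8 CPM in Vehicle (16 UMIs).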
